A study of Macaca fascicularis and Macaca mulatta with 24 samples.

Results

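The proteasome subunit genes are the genes named PSMA, PSMB, PSMC, PSMD, PSME or PSMF with a number, which encode the subunits of the proteasome and its bound activators. Members were found by name on the array: 25 probes carried such a gene name and a further 16 carried the symbol in brackets in their description. These 41 probes gave 39 genes of 18364 on the array, and 38 of them were read by a probe above background, out of 15714 genes tested. PSMA8, the testis form of an alpha subunit, was not read: its probe was well above background in the sample channel on 4 of 24 arrays. No probe carried a PSMG name. The tissue was cortex of cynomolgus macaques (the labels give Macaca fascicularis; Macaca mulatta) whose right middle cerebral artery had been occluded (MCAO). Treatment followed at 5 min, as an intravenous dose of placebo or of TatNR2B9c at 2.6 mg/kg, and cortex was biopsied from the right, ischemic side and the left, non-ischemic side at 1 h or 6 h. TatNR2B9c is a peptide that crosses membranes and, through the tail of NR2B, an NMDA receptor subunit, binds the scaffold PSD-95. The 8 groups of 3 arrays were thus placebo left and right at 1 h, placebo left and right at 6 h, and the same 4 with TatNR2B9c. Each array held 1 sample in Cy5 against a common macaque reference RNA in Cy3. Animal age was not given, no group of the labels is unoccluded, and the control side came from animals with a stroke on the other side.

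The proteasome degrades proteins tagged with ubiquitin. Its core is a barrel of alpha and beta rings, and the active sites sit on beta subunits inside. A regulatory cap with ATPases in a ring unfolds the substrate, while non-ATPase cap subunits hold ubiquitin receptors, a deubiquitinase and scaffolds. Interferon-responsive cells replace the standard catalytic subunits by PSMB8, PSMB9 and PSMB10 to form the immunoproteasome, and the activator PSME1 with PSME2 can cap the core in place of the ATPases. In brain, neurons depend on the proteasome for synaptic protein turnover, and immunoproteasome subunits are mainly found in microglia, endothelium and infiltrating leukocytes. In these bulk biopsies, fewer cells of a type and less RNA per cell cannot be told apart.

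All values rest on 60-base probes, and 2 sets of them are shown: the probe of PSMB5, the chymotrypsin-like active site that proteasome inhibitors target, as an example of a core subunit, and the 3 probes of PSMD4, whose time difference depends on the probe. PSMD4 is the only member with more than 1 probe under the naming rule; further probes described without such a symbol are taken up at the end. It is a ubiquitin receptor of the cap. All 4 sequences hold at least 1 forward frame without a stop codon over their whole length. Most other member probes do so too, so this does not show that a probe is coding. Positions are those the array design gives on rheMac2.
PSMB5: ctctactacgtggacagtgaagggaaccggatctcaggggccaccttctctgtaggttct
PSMD4 probe 1: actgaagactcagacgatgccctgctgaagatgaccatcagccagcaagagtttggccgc
PSMD4 probe 2: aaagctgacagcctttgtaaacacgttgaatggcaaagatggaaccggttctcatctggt
PSMD4 probe 3: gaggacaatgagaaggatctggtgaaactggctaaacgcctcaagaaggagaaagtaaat
The PSMB5 probe lies at chr7:85855278-85855337 on the minus strand. The PSMD4 probes lie on the plus strand at chr1:129693760-129694016, chr1:129693066-129693125 and chr1:129692560-129692865, so probe 1 spans 257 bases and probe 3 spans 306 bases of genome for 60 bases of sequence. Probe 1 was the brightest and stands for the gene. AATAAA or ATTAAA, the signals that precede a transcript's end, was found in 16 of the 41 member probes (39.0%), against 3399 of all 20217 gene probes (16.8%). Exon and intron annotation was not used here.

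A value below is the log2 ratio of sample to reference on 1 array, after background correction and intensity-dependent (loess) normalization. It describes a gene against itself in the reference, so it does not rank genes by abundance. The arrays came in 3 scanning campaigns by the software version in their headers: placebo at 1 h, placebo at 6 h and all TatNR2B9c arrays. Campaign and group therefore cannot be told apart in comparisons of TatNR2B9c with placebo and of 6 h with 1 h in placebo animals. The right and left arrays of 1 treatment and time, and both TatNR2B9c times, lie within 1 campaign, but not on 1 scan day. In placebo at 6 h, 2 of 3 left arrays were scanned on another day than the rest, and 4 of 6 TatNR2B9c arrays at 6 h on another day than those at 1 h. Probes well above background made up 43.9 to 97.7% of the array in Cy5. In Cy3 the range was 14.0 to 51.7% in placebo at 1 h, 84.3 to 92.5% in placebo at 6 h and 51.8 to 99.3% with TatNR2B9c. Members were brighter than most genes, with a median log2 intensity of 10.9 against 8.03, and in Cy5 between 34 and 38 of them were well above background on every array of a group. In Cy3 this held for 21 members in placebo left at 1 h and 28 in placebo right at 1 h, against 36 to 38 elsewhere. Placebo left replicate 1 at 1 h stood apart: its ratios were compressed, with a standard deviation over members of 0.21, where other arrays lay between 0.36 and 1.15. TatNR2B9c left replicate 1 at 6 h had the lowest median over members of all 24 arrays, -0.59. On it the 3 PSMD4 probes printed above read -0.35, -0.70 and 0.40. No member spot was saturated or missing. Of the 7 neuron markers on the array, 6 were well above background on all 24 arrays and the other on 23.

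**Figure D1:**
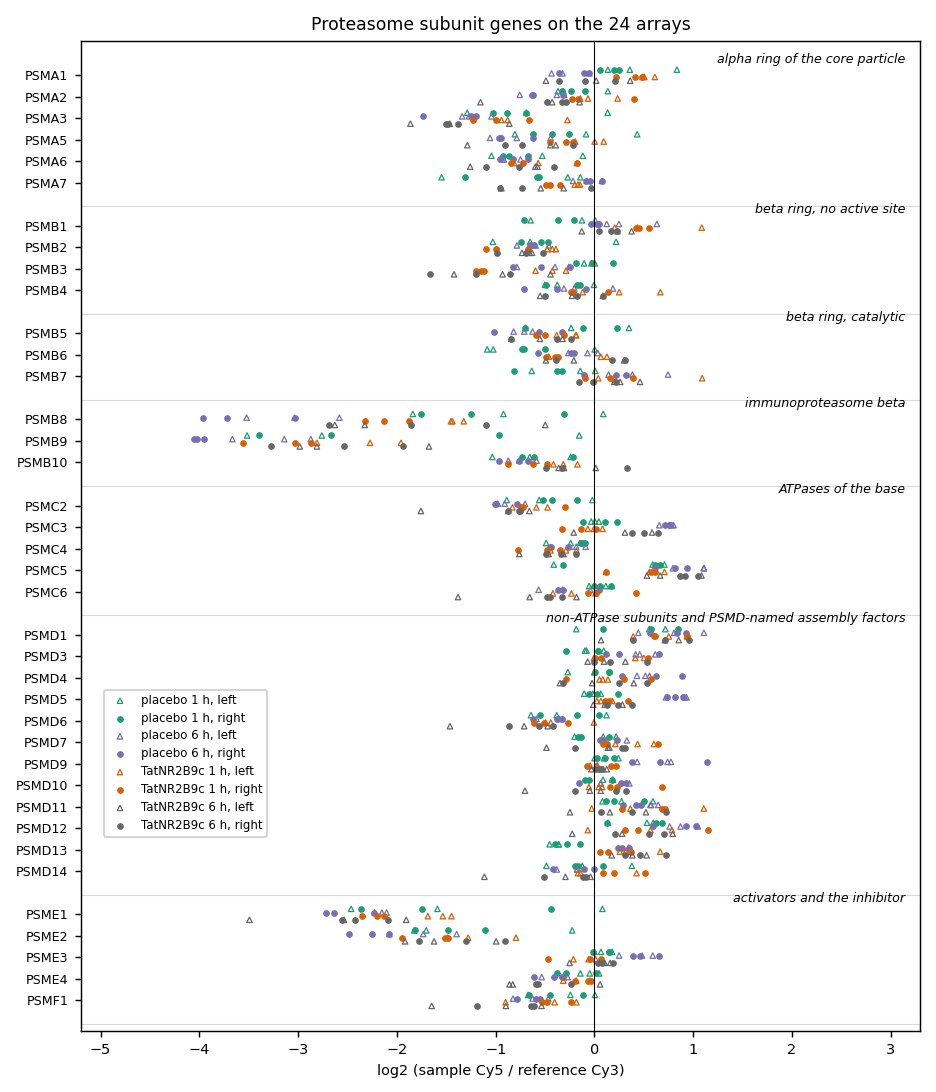
Log2 ratio of sample to reference (horizontal axis) for each of the 38 measured proteasome genes (rows, ordered by role); each point is 1 of the 24 arrays, colour gives treatment and time, open triangles are left and filled circles right. PSMB8, PSMB9, PSME1 and PSME2 are the rows spread far below 0, and the 6 placebo 6 h points of PSMD5 stand apart above the others.

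The members fell into 2 kinds by their level against the reference. PSMB9, PSMB8, PSME1 and PSME2 had mean log2 ratios over the 24 arrays of -2.79, -1.98, -2.04 and -1.55, and the other 34 members lay between -1.08 (PSMA3) and 0.63 (PSMD1). The same 4 genes also varied most between arrays of a group: their residual standard deviations were 0.87, 0.70, 0.66 and 0.46. The median member had a residual standard deviation of 0.291, against 0.288 over all genes tested, and 19 of 38 members were below the all-gene median. Group means of a member ranged over a median of 0.72 between the highest and the lowest of the 8 groups, against 0.85 for all genes.

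In the alpha ring, which gates the entry to the core, 3 of 6 members are given array by array. PSMA1 read 0.36, 0.14 and 0.83 on the left and 0.05, 0.20 and 0.25 on the right at 1 h after placebo, against -0.05, -0.32 and -0.43 (left) and -0.36, -0.11 and -0.05 (right) at 6 h. With TatNR2B9c, PSMA1 read 0.61, 0.50 and 0.49 on the left and 0.48, 0.41 and 0.21 on the right at 1 h, against -0.49, 0.02 and 0.36 (left) and -0.10, 0.21 and -0.36 (right) at 6 h. All 12 arrays at 1 h were above 0, the 6 placebo arrays at 6 h were all below 0, and TatNR2B9c arrays at 6 h lay on both sides. The PSMA1 probe is at chr14:57411873-57411932. PSMA5 read 0.43, -0.81 and -0.09 on the left and -0.62, -0.43 and -0.26 on the right at 1 h after placebo, against -0.44, -0.79 and -1.06 (left) and -0.94, -0.97 and -0.62 (right) at 6 h. With TatNR2B9c, PSMA5 read 0.0023, 0.09 and -0.19 on the left and -0.22, -0.28 and -0.46 on the right at 1 h, against -1.29, -0.39 and -0.45 (left) and -0.73, -0.22 and -0.91 (right) at 6 h. Its highest value was on the compressed placebo left array at 1 h, and with TatNR2B9c at 1 h the right arrays all lay below the left. The PSMA5 probe is at chr1:112459221-112459280. PSMA7 read -0.14, -1.55 and -0.27 on the left and -0.56, -1.31 and -0.58 on the right at 1 h after placebo, against 0.08, -0.22 and -0.08 (left) and -0.08, -0.05 and 0.07 (right) at 6 h. With TatNR2B9c, PSMA7 read -0.20, -0.17 and -0.15 on the left and -0.35, -0.45 and -0.49 on the right at 1 h, against -0.94, -0.31 and -0.54 (left) and -0.73, -0.04 and -0.96 (right) at 6 h. PSMA7 (chr10:2408878-2408937) was lowest on replicate 2 of placebo at 1 h in both hemispheres. PSMA2, PSMA3 and PSMA6, the other alpha subunits, passed no test.

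Among beta subunits with no active site, PSMB1 (chr4:167539664-167539723) and PSMB3 (chr16:48791866-48791925) passed in at least 1 comparison. PSMB1 read 0.0072, -0.65 and -0.13 on the left and -0.37, -0.20 and -0.72 on the right at 1 h after placebo, against 0.63, 0.25 and 0.12 (left) and 0.05, -0.04 and 0.02 (right) at 6 h. With TatNR2B9c, PSMB1 read 1.09, 0.44 and 0.20 on the left and 0.55, 0.45 and 0.42 on the right at 1 h, against -0.13, 0.23 and 0.38 (left) and 0.23, 0.17 and 0.04 (right) at 6 h. All 3 TatNR2B9c right arrays at 1 h lay above all 3 placebo right arrays. PSMB3 read -0.03, -0.10 and 0.0047 on the left and -0.03, -0.19 and 0.19 on the right at 1 h after placebo, against -0.26, -0.40 and -0.78 (left) and -0.25, -0.54 and -0.83 (right) at 6 h. With TatNR2B9c, PSMB3 read -0.43, -0.60 and -0.29 on the left and -1.19, -1.15 and -1.12 on the right at 1 h, against -0.45, -1.42 and -0.93 (left) and -1.67, -1.20 and -0.86 (right) at 6 h. PSMB3 stayed near 0 on all placebo arrays at 1 h, where its Cy3 was well above background on 1 of 3 left and 2 of 3 right arrays. The 3 TatNR2B9c right arrays at 1 h lay close together below all placebo arrays at 1 h and below the 3 TatNR2B9c left arrays at 1 h.

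The standard catalytic subunits are PSMB5, PSMB6 (caspase-like, chr16:4588789-4588848) and PSMB7 (trypsin-like, chr15:11400503-11400562). PSMB5 read 0.35, -0.70 and -0.24 on the left and -0.11, -0.71 and 0.23 on the right at 1 h after placebo, against -0.63, -0.71 and -0.82 (left) and -0.32, -1.01 and -0.56 (right) at 6 h. With TatNR2B9c, PSMB5 read -0.18, -0.19 and -0.38 on the left and -0.59, -0.30 and -0.50 on the right at 1 h, against -0.84, -0.32 and -0.55 (left) and -0.38, -0.24 and -0.85 (right) at 6 h. PSMB5, whose probe is printed above, was below 0 on all 12 arrays at 6 h, and the hemispheres overlapped in all 4 treatment and time groups. PSMB6 read 0.0024, -1.09 and -1.02 on the left and -0.71, -0.73 and -0.50 on the right at 1 h after placebo, against 0.03, -0.07 and -0.27 (left) and -0.20, -0.24 and -0.57 (right) at 6 h. With TatNR2B9c, PSMB6 read 0.07, 0.13 and -0.46 on the left and -0.49, -0.40 and -0.37 on the right at 1 h, against -0.21, 0.30 and -0.49 (left) and 0.17, 0.31 and -0.38 (right) at 6 h. On the left, PSMB6 was lowest on replicates 2 and 3 of placebo at 1 h. PSMB7 read 0.007, -0.63 and -0.14 on the left and -0.38, -0.33 and -0.82 on the right at 1 h after placebo, against 0.74, 0.38 and 0.14 (left) and 0.32, -0.10 and 0.22 (right) at 6 h. With TatNR2B9c, PSMB7 read 1.09, 0.20 and 0.04 on the left and 0.39, -0.09 and 0.16 on the right at 1 h, against 0.26, 0.20 and 0.46 (left) and -0.02, 0.22 and -0.15 (right) at 6 h. PSMB7 lay higher in placebo at 6 h than at 1 h, with no overlap on either side.

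The immunoproteasome subunits PSMB8 (chr4:32536976-32537035) and PSMB9 (chr4:32555210-32555269) lie close together on chromosome 4, and PSMB10 lies on chromosome 20 (chr20:66269522-66269580). PSMB8 read 0.09, -1.84 and -0.92 on the left and -1.25, -1.76 and -0.30 on the right at 1 h after placebo, against -3.04, -2.58 and -3.52 (left) and -3.03, -3.97 and -3.72 (right) at 6 h. With TatNR2B9c, PSMB8 read -1.32, -1.45 and -1.44 on the left and -2.32, -2.13 and -1.88 on the right at 1 h, against -2.33, -2.63 and -0.50 (left) and -1.86, -2.69 and -1.10 (right) at 6 h. Every placebo array at 6 h lay below every placebo array at 1 h. PSMB9 read -0.15, -3.52 and -2.76 on the left and -2.67, -3.40 and -0.97 on the right at 1 h after placebo, against -2.87, -3.14 and -3.67 (left) and -4.03, -4.05 and -3.96 (right) at 6 h. With TatNR2B9c, PSMB9 read -2.27, -1.96 and -2.81 on the left and -3.03, -2.87 and -3.56 on the right at 1 h, against -2.81, -2.98 and -1.68 (left) and -2.53, -3.27 and -1.94 (right) at 6 h. PSMB9 spread over more than 3 log2 units among the placebo left arrays at 1 h alone, and the compressed array gave its highest value. PSMB10 read -0.24, -1.03 and -0.66 on the left and -0.61, -0.73 and -0.22 on the right at 1 h after placebo, against -0.59, -0.87 and -0.76 (left) and -0.97, -0.76 and -0.68 (right) at 6 h. With TatNR2B9c, PSMB10 read -0.17, -0.42 and -0.32 on the left and -0.88, -0.62 and -0.49 on the right at 1 h, against -0.31, -0.36 and 0.01 (left) and -0.33, -0.49 and 0.33 (right) at 6 h. PSMB10 varied less, and its right arrays lay below the left with TatNR2B9c at 1 h.

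The interferon-responsive activator genes PSME1 and PSME2, named here after their values were seen, also lay far below the reference on most arrays; their probes, chr7:87032319-87032378 and chr7:87037011-87037070, are close together. PSME1 read 0.08, -2.46 and -1.59 on the left and -1.75, -2.37 and -0.44 on the right at 1 h after placebo, against -2.10, -2.22 and -2.15 (left) and -2.23, -2.72 and -2.63 (right) at 6 h. With TatNR2B9c, PSME1 read -1.45, -1.54 and -1.69 on the left and -2.35, -2.21 and -2.13 on the right at 1 h, against -3.49, -2.54 and -1.91 (left) and -2.43, -2.55 and -2.09 (right) at 6 h. PSME1 was lower on every right array than on any left array in placebo at 6 h and with TatNR2B9c at 1 h. PSME2 read -0.23, -1.83 and -1.70 on the left and -1.48, -1.81 and -1.11 on the right at 1 h after placebo, against -1.40, -2.08 and -1.73 (left) and -2.08, -2.26 and -2.48 (right) at 6 h. With TatNR2B9c, PSME2 read -1.28, -0.79 and -1.49 on the left and -1.51, -1.49 and -1.95 on the right at 1 h, against -1.92, -1.62 and -1.0 (left) and -1.30, -1.77 and -0.91 (right) at 6 h. PSME2 was also apart in the same 2 groups, but the sides almost touched. Its nearest left and right values were -2.076 and -2.082 in placebo at 6 h, and -1.4874 and -1.48742 with TatNR2B9c at 1 h. PSME1 was as close in placebo at 6 h, at -2.225 and -2.233. The other 15 members without array values here had group means between -1.46 (PSMA3) and 0.89 (PSMD12).

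**Figure D2:**
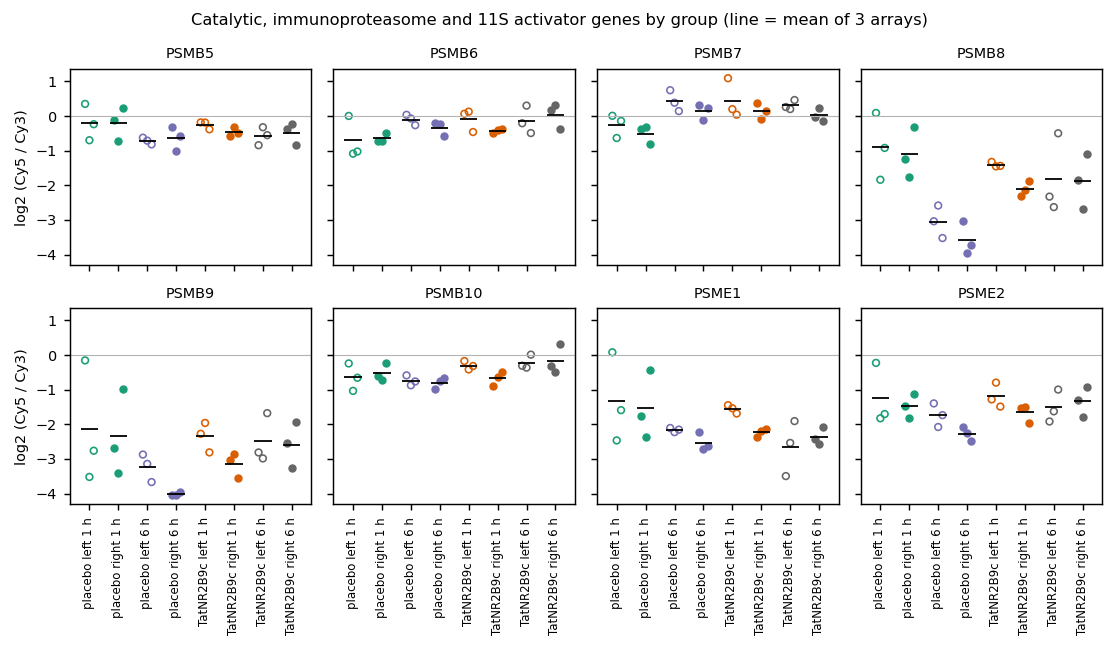
Log2 ratio of sample to reference for PSMB5 to PSMB10, PSME1 and PSME2 (1 panel each) in the 8 groups; points are arrays (open left, filled right) and lines are means of 3 arrays. PSMB8 lies below -2.5 on every placebo array at 6 h and above it on every placebo array at 1 h, while PSMB5, PSMB6, PSMB7 and PSMB10 stay within a narrower range.

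Of the ATPases that ring the cap, PSMC3, PSMC5 and PSMC6 are given in full. PSMC3 read 0.005, -0.03 and 0.04 on the left and 0.22, 0.10 and -0.11 on the right at 1 h after placebo, against 0.80, 0.78 and 0.66 (left) and 0.76, 0.71 and 0.76 (right) at 6 h. With TatNR2B9c, PSMC3 read -0.07, -0.0062 and 0.08 on the left and -0.33, 0.02 and -0.14 on the right at 1 h, against -0.21, 0.58 and 0.31 (left) and 0.38, 0.50 and 0.64 (right) at 6 h. PSMC3 was near 0 at 1 h and between 0.66 and 0.80 on all 6 placebo arrays at 6 h. PSMC5 read -0.41, 0.59 and 0.71 on the left and 0.67, 0.61 and -0.32 on the right at 1 h after placebo, against 1.11, 0.79 and 1.11 (left) and 0.94, 0.61 and 0.81 (right) at 6 h. With TatNR2B9c, PSMC5 read 0.56, 0.71 and 0.12 on the left and 0.57, 0.11 and 0.61 on the right at 1 h, against 0.66, 1.08 and 0.53 (left) and 0.86, 1.05 and 0.92 (right) at 6 h. On the placebo left side, PSMC5 was higher on all 6 h arrays than on any 1 h array. PSMC6 read -0.05, 0.12 and 0.18 on the left and -0.0035, 0.17 and 0.05 on the right at 1 h after placebo, against -0.04, -0.32 and -0.57 (left) and -0.37, -0.31 and 0.05 (right) at 6 h. With TatNR2B9c, PSMC6 read 0.01, -0.42 and -0.23 on the left and 0.42, -0.07 and 0.02 on the right at 1 h, against -1.38, -0.66 and -0.18 (left) and -0.48, -0.33 and -0.45 (right) at 6 h. PSMC6 had its lowest value on TatNR2B9c left replicate 1 at 6 h, and it was well above background on 22 of 24 arrays in Cy5 and 18 in Cy3. In placebo at 1 h its Cy3 was so on 0 of 3 arrays on each side, so its ratios there have no measured reference. The probes lie for PSMC3 at chr14:24699755-24699814, for PSMC5 at chr16:59345526-59345585 and for PSMC6 at chr7:115734974-115735034.

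In the cap, PSMD3 is a scaffold, PSMD4 a ubiquitin receptor and PSMD13 a lid subunit, while PSMD5, PSMD9 and PSMD10 are assembly chaperones and not cap subunits. PSMD3 read -0.10, 0.09 and -0.08 on the left and 0.03, 0.04 and -0.29 on the right at 1 h after placebo, against 0.46, 0.42 and 0.62 (left) and 0.66, 0.11 and 0.25 (right) at 6 h. With TatNR2B9c, PSMD3 read 0.50, -0.0052 and 0.41 on the left and 0.01, 0.06 and 0.54 on the right at 1 h, against -0.07, 0.31 and 0.10 (left) and 0.53, -0.0035 and 0.15 (right) at 6 h. PSMD3 was near 0 in placebo at 1 h and above 0 on all 6 placebo arrays at 6 h. PSMD4 read 0.00096, -0.27 and -0.0016 on the left and 0.00091, 0.15 and 0.15 on the right at 1 h after placebo, against 0.52, 0.56 and 0.43 (left) and 0.88, 0.63 and 0.28 (right) at 6 h. With TatNR2B9c, PSMD4 read 0.14, 0.08 and 0.05 on the left and -0.29, 0.30 and 0.57 on the right at 1 h, against -0.35, -0.02 and 0.40 (left) and 0.25, -0.32 and 0.53 (right) at 6 h. PSMD4 showed the same order in placebo, and the TatNR2B9c arrays at 6 h lay on both sides of 0. PSMD13 read -0.37, -0.36 and -0.45 on the left and -0.27, -0.14 and -0.40 on the right at 1 h after placebo, against 0.34, 0.35 and 0.36 (left) and 0.23, 0.34 and 0.28 (right) at 6 h. With TatNR2B9c, PSMD13 read 0.67, 0.32 and 0.26 on the left and 0.13, 0.06 and 0.37 on the right at 1 h, against 0.17, 0.53 and 0.38 (left) and 0.72, 0.31 and 0.46 (right) at 6 h. PSMD13 was below 0 on every placebo array at 1 h and above 0 on the other 18 arrays, with a narrow spread in placebo left at 6 h. The probes lie for PSMD3 at chr16:50098582-50098641 and for PSMD13 at chr14:64846-64905.

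PSMD5 read -0.10, 0.06 and -0.02 on the left and 0.02, 0.24 and -0.06 on the right at 1 h after placebo, against 0.93, 0.72 and 0.92 (left) and 0.73, 0.82 and 0.90 (right) at 6 h. With TatNR2B9c, PSMD5 read 0.02, 0.18 and 0.06 on the left and 0.34, 0.10 and 0.15 on the right at 1 h, against -0.01, 0.28 and 0.10 (left) and 0.38, 0.24 and 0.12 (right) at 6 h. The 6 placebo arrays at 6 h read above all other 18 arrays. PSMD5 was well above background in both channels on those 6 arrays, but on 18 of 24 arrays in Cy5 and 13 in Cy3 over all; in Cy3 it was so on 0 of 6 placebo arrays at 1 h and on 1 of 6 TatNR2B9c arrays at 1 h. The sizes of its differences between these groups therefore rest on values near background. PSMD9 read 0.00091, 0.24 and 0.10 on the left and 0.20, 0.02 and 0.11 on the right at 1 h after placebo, against 0.77, 0.43 and 0.74 (left) and 1.14, 0.67 and 0.38 (right) at 6 h. With TatNR2B9c, PSMD9 read 0.02, -0.04 and 0.03 on the left and -0.07, 0.22 and 0.17 on the right at 1 h, against 0.12, 0.09 and -0.03 (left) and 0.07, 0.02 and 0.04 (right) at 6 h. Its values were highest in placebo at 6 h. Only in those groups was its probe well above background in Cy5 on all 3 arrays, which testing required of at least 1 group. Over all, the PSMD9 probe was well above background on 12 of 24 arrays in Cy5 and 9 in Cy3. At 1 h it was so in Cy3 on 0 of 12 arrays, and in Cy5 on 2 of 3 left and 1 of 3 right placebo arrays and on 0 of 3 left and 1 of 3 right TatNR2B9c arrays. With TatNR2B9c at 6 h it was so in Cy5 on 1 of 3 arrays on each side. Ratios of PSMD9 at 1 h have no measured reference, and those of TatNR2B9c left at 1 h have no measured channel at all. PSMD10 read 0.18, 0.09 and 0.19 on the left and -0.05, -0.10 and 0.18 on the right at 1 h after placebo, against 0.35, 0.06 and 0.06 (left) and 0.27, -0.15 and 0.32 (right) at 6 h. With TatNR2B9c, PSMD10 read 0.08, 0.04 and -0.06 on the left and 0.68, 0.22 and 0.15 on the right at 1 h, against -0.70, 0.06 and -0.05 (left) and 0.22, 0.32 and -0.20 (right) at 6 h. With TatNR2B9c at 1 h, PSMD10 was higher on all 3 right arrays than on the left. PSME3 read 0.07, -0.00031 and 0.18 on the left and 0.15, 0.15 and -0.01 on the right at 1 h after placebo, against 0.25, 0.48 and 0.59 (left) and 0.66, 0.46 and 0.39 (right) at 6 h. With TatNR2B9c, PSME3 read -0.06, -0.21 and 0.01 on the left and -0.47, 0.06 and -0.04 on the right at 1 h, against -0.25, 0.16 and 0.10 (left) and 0.08, 0.19 and 0.04 (right) at 6 h. PSME3, the nuclear activator that works without ubiquitin, was higher on all 6 placebo arrays at 6 h than on any other placebo array; in placebo at 1 h its Cy3 was well above background on 0 of 3 left and 1 of 3 right arrays. The probes lie for PSMD5 at chr15:15193482-15193541, for PSMD9 at chr11:123004607-123004666, for PSMD10 at chrX:106801230-106801289 and for PSME3 at chr16:52964076-52964135.

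The comparison of the ischemic right with the non-ischemic left side asks whether the occlusion moved proteasome genes in the tissue it struck. No member passed in any group: 0 of 38 at 1 h and 6 h in placebo and with TatNR2B9c, and 0 in the mean over the 4 groups (limma, Benjamini-Hochberg over all genes, threshold 0.05). The background was also 0%, since 0 of the 15713 or 15714 genes tested passed in each of these comparisons. At an unadjusted p under 0.05 the members counted 0, 0, 2 and 0 in placebo at 1 h, placebo at 6 h, TatNR2B9c at 1 h and TatNR2B9c at 6 h, against 1.34%, 3.85%, 4.44% and 3.23% of all genes. The median member differed by -0.02, -0.06, -0.14 and 0.13 in the same order, where the median of all genes was 0.01, -0.05, -0.03 and 0.06. Members higher on the right numbered 15, 9, 12 and 29 of 38. These counts are to be read against the all-gene medians, which had the same sign in placebo at 6 h and in both TatNR2B9c groups. Within replicate numbers 1, 2 and 3 of TatNR2B9c at 6 h, 62.1, 48.2 and 50.1% of all genes lay higher on the right. Members did so for 33, 20 and 13 of 38. Replicates of right and left did not overlap for 1, 6, 11 and 0 members, against 3.67%, 12.8%, 19.9% and 2.34% of all genes. In the mean over the 4 groups, 2 members had an unadjusted p under 0.05, against 3.77% of all genes, the median was -0.02, and the 95% interval of 33 of 38 members lay within 0.5 log2 units of no difference; single comparisons were less precise, with 7 to 10 members so bounded. Differences within 0.5 made up 100% of members in placebo at 1 h, 92.1% in placebo at 6 h, 89.5% with TatNR2B9c at 1 h and 100% with TatNR2B9c at 6 h.

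**Figure D3:**
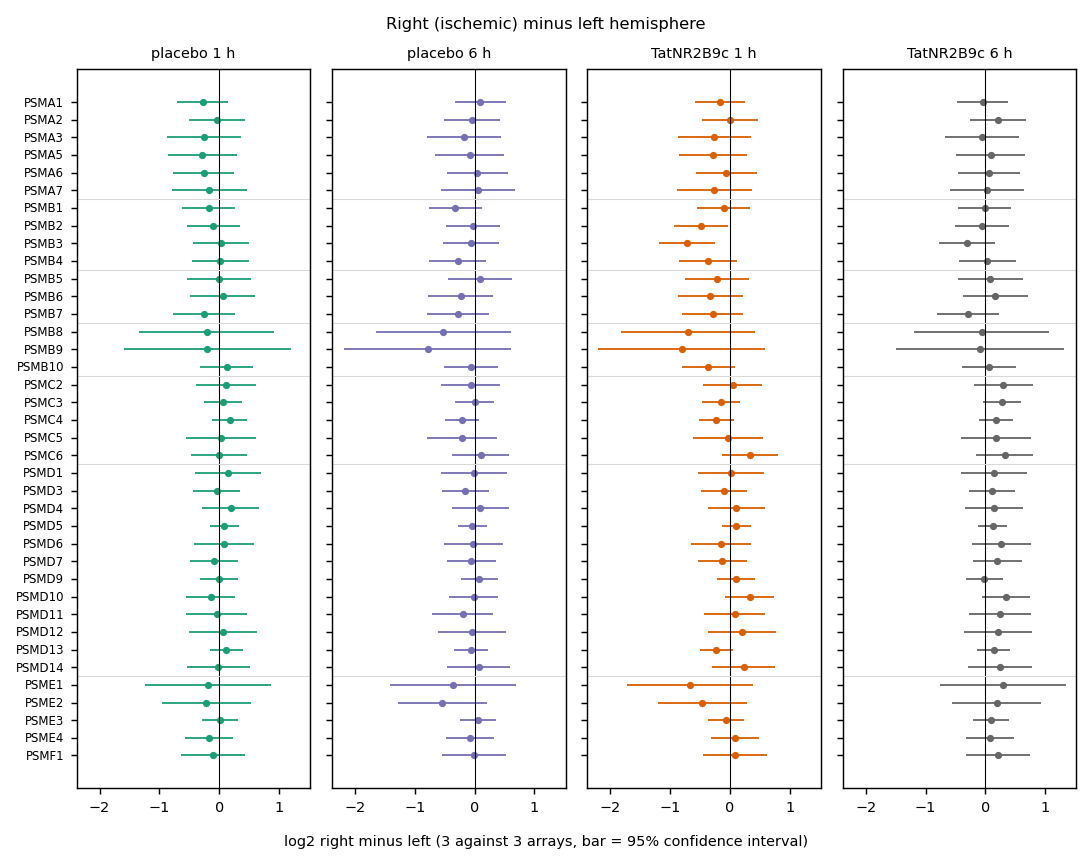
Right minus left log2 difference for each of the 38 measured members in the 4 treatment and time groups, by role; error bars are 95% intervals from the limma fit and the line at 0 marks no difference. No member passes after adjustment, and PSMB9, PSMB8 and PSME1 have the widest intervals.

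By role, the ATPases had medians of 0.07, -0.06, -0.03 and 0.28 in placebo at 1 h, placebo at 6 h, TatNR2B9c at 1 h and TatNR2B9c at 6 h. Non-ATPase cap genes, taken with the PSMD-named assembly chaperones, had medians of 0.03, -0.03, 0.09 and 0.17, and alpha subunits -0.26, 0.00, -0.21 and 0.04. The immunoproteasome subunits had -0.20, -0.53, -0.70 and -0.07. With TatNR2B9c at 1 h each right array of all 3 lay below each left array, against 12.3% of all genes, and none passed. PSMB9 had the lowest member value in the mean over groups, -0.47 (SE 0.33), and in 2 single comparisons: -0.78 in placebo at 6 h (SE 0.67, 95% interval -2.18 to 0.61) and -0.81 with TatNR2B9c at 1 h (95% interval -2.21 to 0.59, adjusted p = 0.93 in limma). PSMB8 differed by -0.21, -0.53, -0.70 and -0.07, and PSMB10 by 0.12, -0.06, -0.36 and 0.06. The antigen processing and interferon genes measured beside them, 10 of 11 on the list, had a median of -0.14 in the mean over groups, and 0 passed. Lymphocyte markers had a median of -0.15 there, and 0 of 4 passed. Their part in the immunoproteasome values was not tested.

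PSMB5 differed by -0.0013, 0.08, -0.21 and 0.08, and by -0.01 in the mean over groups, with a 95% interval of -0.28 to 0.26. PSMB6 differed by -0.09 in the mean over groups, with an interval of -0.36 to 0.19. PSMB7 was lower on the right in all 4 groups, at -0.25, -0.28, -0.29 and -0.29; its mean of -0.28 had an unadjusted limma p of 0.0355 and an adjusted p of 0.888. PSMB3 had the other small unadjusted p: with TatNR2B9c at 1 h it differed by -0.72 (SE 0.22, adjusted p = 0.93) by limma, and its mean over groups was -0.26. PSMB2, a beta subunit outside the rule for named genes and chosen after its values were seen, differed by -0.49 with TatNR2B9c at 1 h (adjusted p = 0.93 in limma). The largest positive differences were PSMD4 0.19 in placebo at 1 h, PSMC6 0.10 in placebo at 6 h and 0.34 with TatNR2B9c at 1 h, and PSMD10 0.34 with TatNR2B9c at 6 h, none past the threshold. PSMA5 was lowest in placebo at 1 h at -0.28, and PSMB3 with TatNR2B9c at 6 h at -0.31. The 3 PSMD4 probes printed above gave 0.19, 0.07 and 0.16 in placebo at 1 h, 0.09, 0.18 and 0.15 in placebo at 6 h, 0.10, 0.12 and 0.06 with TatNR2B9c at 1 h, and 0.14, 0.16 and -0.19 with TatNR2B9c at 6 h (SE 0.23 for probes 1 and 2, which exceeds each of their values).

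Subtracting left from right within the same replicate number gave medians over members of -0.36, 0.14 and 0.02 in placebo at 1 h and -0.17, -0.08 and -0.01 in placebo at 6 h. With TatNR2B9c they were -0.26, -0.16 and 0.03 at 1 h and 0.47, 0.00 and -0.18 at 6 h. No member lay higher on the right in 10 or more of the 12 differences, and none in 2 or fewer, against 1.41% and 2.41% of all genes. The titles share these numbers without stating that a number is 1 animal. The positive median with TatNR2B9c at 6 h rested on 1 array: without TatNR2B9c left replicate 1 it was -0.04. Whether TatNR2B9c altered the right to left difference was tested as treatment by hemisphere, and 0 members and 0% of genes passed at 1 h or 6 h; 1 member (PSMB3, -0.75) at 1 h and 0 at 6 h had an unadjusted p under 0.05, against 1.72% and 4.25% of genes.

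Comparing TatNR2B9c with placebo on the same side, few members passed. On the right side at 1 h, PSMB1 rose and PSMB3 fell, and on the left at 1 h PSMD13, the lid subunit, rose. At 6 h, PSMD5 fell on both sides, and PSMC3 and PSME3 fell on the left. PSMD9 was also lower on both sides at 6 h, but it met the filter on dim probes only through placebo at 6 h, the higher group. Its fall is therefore not independent of that filter. Directions and counts are those after loess; with each array centred on its median instead, PSMB1 and PSMD13 turned (-2.83 and -3.63); in Cy5 alone PSMB1 and PSME3 turned (-0.012 and 0.81). With that centring, 35 members on the right and 36 on the left passed at 1 h, nearly all lower. Treatment and scanning campaign cannot be told apart in these.

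On the right at 1 h, 1 member rose and 1 fell of 38, against 0.369% and 1.18% of all genes. PSMB1 differed by 0.90 (SE 0.21, adjusted p = 0.036) and PSMB3 by -1.14 (SE 0.22, adjusted p = 0.0166), both by limma. In Cy5 alone PSMB3 differed by -0.75 (adjusted p = 0.168, limma), and in Cy3 alone by 1.11 (adjusted p = 0.0282, limma). The reference channel of PSMB3 was well above background on 2 of 3 placebo right arrays at 1 h, so the size of its fall is uncertain. PSMB1 passed in 1 of 6 fits with 1 array left out and PSMB3 in 2 of 6; no member passed without placebo right replicate 1 or 3 or TatNR2B9c right replicate 1 or 2, and 1 passed without TatNR2B9c right replicate 3. On the left at 1 h PSMD13 rose by 0.81 (SE 0.13, adjusted p = 0.00765) by limma and no member fell, against 0.859% of genes higher and 0.0382% lower. It did not pass without TatNR2B9c left replicate 1, and 2 members passed without replicate 3. The left difference of PSMB1 was 0.83 and that of PSMB7 0.70, neither past the threshold. Of the cell type markers at 1 h, SLC1A2, an astrocyte glutamate transporter, rose on the right (2.18) and NEFL, a neurofilament, on the left (1.61). All 7 neuron markers read higher than in placebo on both sides (medians 0.73 and 1.13), and no other marker passed. The part of these in the member values was not tested.

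On the right at 6 h, 0 members rose and 2 fell, against 2.63% and 1.63% of all genes. PSMD5 differed by -0.57 (SE 0.11, adjusted p = 0.00951) and PSMD9 by -0.69 (SE 0.15, adjusted p = 0.0144) in limma. The probes were well above background in Cy5 on 2 of 3 (PSMD5) and 1 of 3 (PSMD9) TatNR2B9c arrays on each side, so the sizes for both genes at 6 h are uncertain. PSMD9 met the filter on dim probes only through placebo at 6 h, the higher group here, so its fall is not independent of that filter. On the right, 1 member passed without placebo right replicate 1 and none without TatNR2B9c right replicate 3. On the left at 6 h, 0 rose and 4 fell, against 10.7% and 13.7% of genes. PSMD5 differed by -0.73 (SE 0.11, adjusted p = 0.00054), PSMD9 by -0.59 (SE 0.15, adjusted p = 0.00918), PSMC3 by -0.52 (SE 0.15, adjusted p = 0.0202) and PSME3 by -0.44 (SE 0.14, adjusted p = 0.0335), all by limma. Only 2 of these 4 passed without placebo left replicate 2. Of the TatNR2B9c left arrays at 6 h, PSMC3 and PSME3 read lowest on replicate 1 (-0.21 and -0.25). With 1 array left out, PSMC3 ran from -0.70 to -0.30 and passed in 3 of 6 fits. PSME3 ran from -0.53 to -0.31 and passed in 2 of 6. The immunoproteasome subunits lay above placebo on the right at 6 h, with no overlap between arrays and differences of 1.69 for PSMB8, 1.43 for PSMB9 and 0.64 for PSMB10. None passed; all 3 had an unadjusted p under 0.05 where 20.7% of all genes did, and replicates did not overlap, higher, for 18.4% of genes. HBB, the red cell marker, rose by 5.89 there and by 5.03 on the left, and SLC1A2 by 2.04 and 1.81. FOLR1, a choroid plexus marker, rose by 1.58 on the right. On the left at 6 h all 4 lymphocyte markers measured rose (median 0.66), and 3 of 7 neuron and 2 of 5 oligodendrocyte markers fell (medians -0.94 and -1.19). PECAM1 (1.76), an endothelial marker, LUM (1.34), a meningeal marker, and FCGR3B (0.67), a neutrophil marker, also rose on the left. What these marker shifts contribute to the member values was not tested.

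Between 1 h and 6 h, members changed in placebo animals on both sides, and none passed with TatNR2B9c. In placebo, the cap genes PSMC3 and PSMD13, the assembly chaperone PSMD5 and the activator PSME3 rose on both sides. PSMD9 was also higher on both sides, but it met the filter on dim probes only through placebo at 6 h. PSMD3, PSMD4 and PSMC5, of which a further probe fell, rose on the left. PSMB7, the trypsin-like subunit, rose on both sides, PSMA7 on the right, and PSMB1 on the left. PSMB8, an immunoproteasome subunit, fell on both sides, and PSMA1 fell on the left. These are directions of the ratio. In Cy5 alone PSMB8, PSMD5 and PSMD13 turned sign on both sides, PSMA7 on the right and PSMB1 on the left. Time and scanning campaign cannot be told apart in placebo animals, and with median centring in place of loess 12 of the 17 rises turned sign (values of -0.21 to -3.90). With the software's processed signals and no loess, PSMD5 and PSME3 turned on the right (-0.15 and -0.51) and PSMD4 and PSME3 on the left (-0.070 and -0.37).

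On the right in placebo, 7 members rose and 1 fell of 38, against 21.4% and 19.4% of all genes; the members' share of calls, 8 of 38, was below the 40.8% of all genes. PSMB8 fell by 2.47 on the log2 scale (SE 0.54, adjusted p = 0.00146 in limma). In placebo at 1 h its reference channel was well above background on 2 of 3 right and 1 of 3 left arrays, so the size of this fall is uncertain. Its direction in the sample is uncertain too: Cy5 alone differed by 0.17 (adjusted p = 0.806, limma) and Cy3 alone by 1.54. PSMA7 differed by 0.80, PSMB7 by 0.66, PSMC3 by 0.67, PSMD5 by 0.75, PSMD9 by 0.62, PSMD13 by 0.56 and PSME3 by 0.41. Their limma SEs lay between 0.11 and 0.30. Without placebo right replicate 3 at 1 h, 4 rose and 1 fell; without replicate 1 at 6 h, 4 rose and 2 fell; without replicate 2 at 1 h, 6 rose and 4 fell. On the left, 10 rose and 2 fell, against 30.7% and 23.3% of genes, or 54.0% in all. This balance depended on 1 array: without placebo left replicate 2 at 1 h, 6 rose and 7 fell. Without placebo left replicate 1 or 3 at 6 h, 6 rose and 3 or 2 fell. PSMB8 differed by -2.16 (SE 0.54, adjusted p = 0.00264) and PSMA1 by -0.71 (SE 0.20, adjusted p = 0.00633) by limma. The rises were 0.59 for PSMB1, 0.68 for PSMB7, 0.74 for PSMC3, 0.71 for PSMC5 and 0.52 for PSMD3. They were 0.59 for PSMD4, 0.88 for PSMD5, 0.54 for PSMD9, 0.74 for PSMD13 and 0.36 for PSME3. PSMD4 passed in 0 of 6 fits with 1 array left out, and in placebo at 1 h its Cy3 was well above background on 1 of 3 left arrays. Its probes printed above gave 0.59 (adjusted p over probes = 0.036), 0.38 (0.17) and 0.22 (0.23) by limma, so 1 of 3 passed. Other rises were also unstable with 1 array left out. On the right PSMA7 passed in 1 of 6 fits, PSMB7 in 2 and PSME3 in 3. On the left PSME3 passed in 2 of 6, PSMC5 and PSMD3 in 3, and PSMB1 and PSMB7 in 4. The ratios of PSMD5, PSMD9, PSMD13, PSMC3 and PSMB8 passed in all 6 such fits on both sides. Leaving out arrays does not test the sample channel by itself. In Cy5 alone, PSMD5 (-0.45 on the right and -0.60 on the left), PSMD13 (-0.060 and -0.042) and PSMB8 (0.17 and 0.40) turned sign. The direction of these genes in the sample is therefore uncertain, while PSMC3 and PSMD9 kept their sign. For PSMD5 and PSMD9 the sizes are uncertain as well: in placebo at 1 h their Cy3 was well above background on 0 of 3 arrays on either side. PSMD9 also met the filter on dim probes only through placebo at 6 h, so its rise is not independent of that filter.

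With TatNR2B9c, where both times lie in 1 campaign, 0 members passed on the right, against 0.121% of all genes, and 0 on the left, against 0%. At an unadjusted p under 0.05 the counts were 5 of 38 on the right and 10 of 38 on the left, against 19.4% and 16.1% of genes. With array weights 1 member passed on the right, and 3 passed on the left without TatNR2B9c left replicate 3 at 6 h. The median member differed by -0.11 on the right and -0.32 on the left, and by 0.06 and -0.10 with slide as a block, where only 1 slide held both times; 0 members passed with that block. PSMB8 differed by 0.23 on the right (95% interval -0.90 to 1.35) and by -0.41 on the left (-1.54 to 0.72). PSMC3 differed by 0.65 (adjusted p = 0.0682 in limma) on the right. PSMD5 differed by 0.05 and 0.03, and PSMD13 by 0.31 and -0.05, on the right and left. Whether time differed in effect between the treatments was not tested.

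Marker genes moved with the placebo time comparison. All 7 neuron markers were higher at 6 h on both sides (medians 2.01 on the right and 2.29 on the left), and the median neuron marker ranged from 0.27 to 1.95 on placebo right arrays at 1 h and from 2.97 to 3.95 at 6 h. Oligodendrocyte markers rose in 3 of 5 on the right and 4 of 5 on the left, and astrocyte markers in 2 and 3 of 6. All 4 lymphocyte markers fell on both sides, as did 3 of 4 meningeal markers, and HBB differed by -3.74 and -2.17. Of 5 microglia markers 2 fell on the right and 0 on the left, of 5 endothelial markers 1 fell on each side, and of 6 neutrophil markers 1 fell on the right while 1 rose and 1 fell on the left. Probes for CD3D, MS4A1 and COL1A1 were well above background on only 3, 5 and 5 of 24 arrays and were left out by the filter on dim probes. Of the antigen processing genes near the immunoproteasome, 3 of 10 fell on both sides: TAP1, the peptide transporter, by 1.48 on the right and 1.33 on the left, IRF1, an interferon-response factor, by 1.01 and 1.47, and ERAP2, a peptide-trimming enzyme, by 2.10 and 1.91. What these markers have to do with the fall of the PSMB8 ratio was not tested.

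Each ratio combines 2 channels, so the sample channel (Cy5) and the reference channel (Cy3) were also fitted alone. Of the 29 member differences that passed, 19 kept their sign in Cy5 alone and 7 of those passed there too, while 10 turned sign. In 7, the reference channel alone passed in the opposite direction. PSMB8 was one of them: on the right in placebo its ratio fell by 2.47, while Cy5 alone differed by 0.17 (adjusted p = 0.806, limma) and Cy3 by 1.54 (adjusted p = 0.00692). On the left, Cy5 differed by 0.40 and Cy3 by 2.09 (adjusted p = 0.0007, limma). PSMD5 on the right differed by 0.75 in the ratio and by -0.45 in Cy5 (adjusted p = 0.0768, limma). On the left its ratio rose by 0.88 while Cy5 alone fell by 0.60 (adjusted p = 0.0323, limma), so the sample channel passed in the opposite direction. PSMC3 on the right differed by 1.93 in Cy5 and 1.20 in Cy3, and by 0.67 in the ratio. PSME3 at 6 h on the left, TatNR2B9c against placebo, had a ratio difference of -0.44 and a Cy5 difference of 0.81 (adjusted p = 0.0419, limma). The right against left comparisons passed for 0 members in either channel alone.

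**Figure D4:**
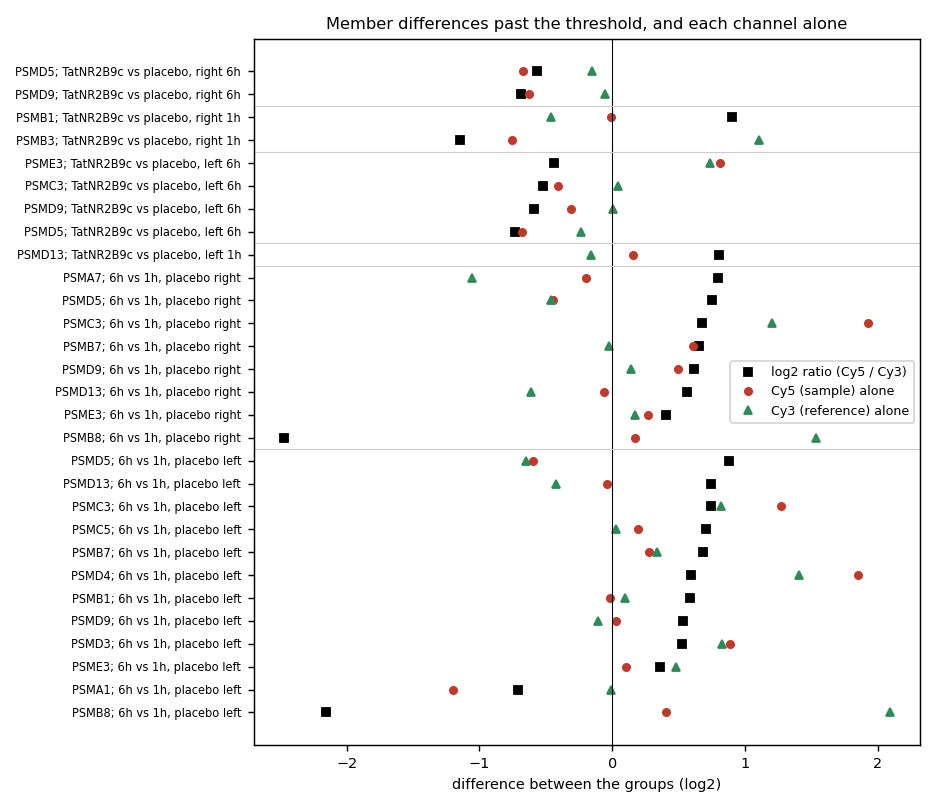
The 29 member differences that passed (rows, by comparison) as log2 difference between the groups: black squares are the ratio, red circles Cy5 alone and green triangles Cy3 alone. The 10 red circles on the other side of 0 from their square turned sign, PSMB8 among them.

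Genes around the proteasome were read from lists by function. Among 8 assembly factors and subunits under other symbols, ADRM1, a ubiquitin receptor of the cap, was lower with TatNR2B9c on the right at 1 h (-1.02, adjusted p = 0.015 by limma). Between 1 h and 6 h in placebo, 0 of these 8 rose and 1 fell on the right, and 0 rose and 3 fell on the left. Of 7 deubiquitinases, 3 rose and 1 fell on the right, and 4 rose and 2 fell on the left; OTUB1 rose by 1.24 and 1.25 and USP9X fell by 0.87 and 0.85. Of 11 genes of ubiquitin and its activation, 2 rose and 1 fell on the right and 3 rose and 2 fell on the left. The 13 shuttle and p97 genes gave 1 and 1 on the right and 3 and 2 on the left, and the 9 ligases 0 and 1, and 2 and 1. These counts are to be read against the 40.8% and 54.0% of all genes that passed. NFE2L2, a factor of the oxidative stress response, fell by 1.59 on the left. No gene of these lists passed between right and left. A further 11 probes describe a subunit or assembly factor without meeting the naming rule, among them PSMA4, another probe for PSME1 and one described as similar to SUG1, an older name of PSMC5; some are also in the list of 8. None passed between right and left, and their median differences were -0.05, -0.03, -0.05 and 0.07 in placebo at 1 h, placebo at 6 h, TatNR2B9c at 1 h and TatNR2B9c at 6 h. Between 1 h and 6 h in placebo, 0 of the 11 rose and 2 fell on the right (median -0.25), and 0 rose and 4 fell on the left (median -0.39), where more of the members rose than fell. The SUG1 probe fell by 0.52 on the right and by 0.57 on the left (adjusted p over probes = 0.0123 and 0.0049, limma), opposite to the rise of the PSMC5 probe on the left, so the direction of PSMC5 is uncertain. The further PSME1 probe differed by -0.82 and -0.70 and did not pass.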

How the data were processed

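Cortex RNA of 24 biopsies in 8 groups of 3 was hybridised in Cy5 with reference RNA in Cy3. The deposited scanner files hold spot intensities and log10 ratios from Agilent Feature Extraction, per the file headers versions 9.5.3.1, 10.5.1.1 and 10.7.3.1; the submitters' processing notes name 10.7.3.1. Log10 ratios in the authors' series matrix are these rounded (largest difference 0.005); its column medians ran from 0 to 0.175, and its scale, centring and direction are those of the scanner ratios. The deposited feature flags (another unit, 0 or 1) gave well above background, non-uniform and saturated spots. No dyes were swapped, so dye bias stays in each level against the reference.

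Mean and background intensities were corrected by normexp (offset 50) and normalized by loess within arrays with limma 3.58.1 (R 4.3.3), without control spots or non-uniform outliers, to log2 ratios computed from the deposited intensities. Probes that the flags put well above the Cy5 background throughout 1 group or more were kept, and the brightest of them stands for a gene. One limma model with 8 group means over 24 arrays gave 15 comparisons; p-values are two-sided, adjusted by Benjamini-Hochberg over all genes tested, with a threshold of 0.05. Fits were tested on simulated data. Array number limits the precision: by permutation alone, 3 against 3 could not go below 0.1. That replicates are separate animals rests on the labels' 3 animals per group.

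Array values are given for members that passed anywhere, for PSMB5 to PSMB10, and for the extremes between right and left. Members and lists were chosen with earlier results of these data known. Alternatives covered background correction, processed signals, the series matrix, median centring, scaling, Cy5 alone, the filter, probe averaging, the groups fitted, array weights, weak Cy3 arrays, slide, scan day and replicate blocks, and each array left out.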

Additional observations from a re-analysis of the deposited data

Results flagged for a closer look

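In 4 members, right minus left within a replicate number had one sign in all 3 differences of a treatment and time group and the opposite sign in all 3 of another. This held for 10.5% of the 38 members and for 7.82% of all genes, so the share of members is near the background. Replicate numbers were not taken as pairs of 1 animal, and the differences were not tested by pairs. PSMB6, the caspase-like subunit, was -0.30 to -0.17 in placebo at 6 h (mean -0.24) and 0.0055 to 0.38 with TatNR2B9c at 6 h (mean 0.17), a gap of 0.40. PSMD10, an assembly chaperone, was -0.23 to -0.0094 in placebo at 1 h (mean -0.14) and 0.18 to 0.60 with TatNR2B9c at 1 h (mean 0.33), a gap of 0.47. For these 2 the treatment by hemisphere term of the limma model was 0.40 (adjusted p = 0.93) and 0.47 (adjusted p = 1). PSMC4, an ATPase, was 0.011 to 0.37 in placebo at 1 h (mean 0.17) and -0.36 to -0.019 in placebo at 6 h (mean -0.21), a gap of -0.39. PSMD13 was 0.051 to 0.22 in placebo at 1 h (mean 0.12) and -0.11 to -0.0026 in placebo at 6 h (mean -0.06), a gap of -0.18. The differences of PSMC4 and PSMD13 between 1 h and 6 h were not tested.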

How the results depend on the processing

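No member passed between right and left, or for treatment by hemisphere, under any alternative run. Counts of members passing otherwise moved; they are given in the order TatNR2B9c against placebo on the right at 1 h (2), right at 6 h (2), left at 1 h (1) and left at 6 h (4), then 6 h against 1 h in placebo right (8) and left (12). The processed signals and the series matrix each gave 2, 0, 3, 0, 1 and 6. Median centring gave 35, 1, 36, 1, 34 and 34, with the median of all genes shifted to -0.77, -0.45, -0.97, -0.53, -0.79 and -0.88. Scaling gave 1, 0, 1, 0, 2 and 3, and Cy5 alone 12, 6, 9, 9, 14 and 7. The filter on all 24 arrays gave 1 on the right at 1 h, 0 at 6 h on both sides and 4 in placebo right, since it tests fewer members. Fitting the compared groups alone gave 1, 0, 0 and 0 for treatment. Array weights gave 4 and 3 at 1 h, 13 in placebo right and 1 with TatNR2B9c right over time. Without the arrays under 25 percent in Cy3, which leaves 1 placebo left and 2 placebo right arrays at 1 h, counts were 0 and 0 at 1 h and 7 in placebo left; the single left array is assumed to vary like the other groups, so these values test little. Scan day as a random block gave 1 on the right at 1 h and 5 in placebo right. With 1 array left out the ranges were 0 to 2, 0 to 2, 0 to 2, 2 to 6, 5 to 10 and 8 to 13, with 0 to 3 for TatNR2B9c left over time.

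The median for treatment by hemisphere at 1 h (-0.06) was 0.17 with the processed signals and the series matrix, 0.90 with median centring, -0.24 with array weights and -0.36 without weak Cy3 arrays. Right minus left at 1 h became -0.58 in placebo and 0.27 with TatNR2B9c under median centring, and 0.22 in placebo without weak Cy3 arrays (1 left array). Left-out arrays moved it from -0.044 to 0.21 with TatNR2B9c at 6 h and the treatment by hemisphere median from 0.0056 to 0.31 at 6 h. The cause of these shifts was not tested.

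Signs turned as follows. Under median centring, 6 h against 1 h in placebo gave PSMA7 -2.33, PSMB7 -3.14, PSMC3 -1.80 and PSMD13 -2.71 on the right, and PSMB1 -3.90, PSMB7 -3.90, PSMC3 -2.45, PSMC5 -3.80, PSMD13 -3.36, PSMD3 -3.64, PSMD4 -0.93 and PSME3 -0.21 on the left; PSMB1 gave -2.83 and PSMD13 -3.63 for treatment at 1 h. In Cy5 alone, PSMA7 was -0.20, PSMB8 0.17, PSMD13 -0.060 and PSMD5 -0.45 on the right, and PSMB1 -0.019, PSMB8 0.40, PSMD13 -0.042 and PSMD5 -0.60 on the left; for treatment PSMB1 was -0.012 and PSME3 0.81. With the processed signals and the series matrix, PSMD5 was -0.15 (both) and PSME3 -0.51 (both) on the right, and PSMD4 -0.070 (both) and PSME3 -0.37 (both) on the left. The cause was not tested.

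Replicate numbers were checked as pairs: 6 of 12 same-numbered right and left arrays deviated together (correlation over 0.1), the range was -0.71 to 0.69, and 3 of 12 pairs matched best with their own number. With 3 arrays per group these values cannot decide whether a number is 1 animal. The main fits left the numbers unpaired. With the replicate block, 0 members passed in each right against left comparison and in treatment by hemisphere, as without it. The weak Cy3 signal of placebo at 1 h limits what its ratios can show.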
